A study of Monodelphis domestica with 7 samples.

Results

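SLC16A1 (ENSMODG00000000929) and SLC16A4 (ENSMODG00000001701) are monocarboxylate transporter genes of the SLC16 family, and they were read by gene identifier from the table of counts, as 2 of its 21314 genes. Both passed the filter on low counts and were among the 13534 genes tested. The filter keeps genes with about 10 counts in enough libraries, and SLC16A4 passed it with 15 counts or fewer in every library. The libraries were made from spinal cord of the grey short-tailed opossum, *Monodelphis domestica*, a marsupial whose pups are born with an immature nervous system. The question was how the cord above a complete transection responds within 24 h at an age when axons grow across the lesion (P7) and at one when they do not (P28).

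Cords of the P7+24h injured group and those of the P28+24h injured group were cut through in the thoracic region at P7 or P28 and taken 24 h later, and only the segment rostral to the cut was used. P8 control and P29 control cords were the same segment of uninjured pups of matching age. The study's methods describe each library as a pool of 2 individuals, while the labels' protocol speaks of individual samples. The study's totals of animals per group are larger than either would give for these libraries, so what 1 library stands for is not settled. Pups were of either sex. Isoflurane was given for the surgery and, by the study's methods, also to the uninjured littermates that served as controls for P28. At P7 entire litters received the injury and controls came from other litters, so litter and injury cannot be told apart at that age. There were 2 libraries each of P8 control, P7+24h injured and P28+24h injured cord and 1 of P29 control cord, 7 in all. Numbers 1 and 2 in the library labels mark sequencing runs made from separately collected samples, so a run is a set of animals as well as a sequencing event, and these cannot be told apart. The P29 control is of run 1 only.

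SLC16 proteins carry small organic acids across the cell membrane. SLC16A1 encodes MCT1, which moves lactate, pyruvate and ketone bodies together with a proton in the direction of their gradient, and which needs the membrane protein basigin (BSG) to reach the cell surface. In the central nervous system MCT1 is known from endothelial cells, astrocytes and oligodendrocytes, and lactate passed on by glia is a fuel for axons. SLC16A4 encodes MCT5, a family member whose substrates are poorly known.

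Library totals ranged from 3332232 to 6256074 counts, and run 2 libraries were the deeper ones. Levels are given as CPM, the count scaled to library size after TMM adjustment, with exact 95% Poisson intervals that cover counting error only. The gene lengths used in the counting are not given in the sources used here, so the levels of one gene were not compared with those of the other. GFAP, an astrocyte gene, and MBP, a myelin gene, were present in all 7 libraries, with GFAP between 1034 and 14714 counts and MBP between 110 and 115984.

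SLC16A1 was readily measured in every library. In P8 control cord it had 70 counts in run 1, which is 17.3 CPM (13.5 to 21.9), and 220 counts in run 2, which is 36.3 CPM (31.6 to 41.4). In P7+24h injured cord it had 70 counts in run 1, 18.4 CPM (14.3 to 23.2), and 232 counts in run 2, 34.7 CPM (30.4 to 39.5). The young cords therefore fell into a low pair from run 1 and a high pair from run 2, with a control and an injured library in each pair. The P29 control library had 115 counts, 33.0 CPM (27.3 to 39.7), as high as the young cords of run 2 although it is of run 1. P28+24h injured cord had the lowest and the highest value of all 7 libraries, with 39 counts in run 1, 13.8 CPM (9.79 to 18.8), and 239 counts in run 2, 38.8 CPM (34.0 to 44.0).

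By group the mean level of SLC16A1 was 33.0 CPM in the single P29 control library, 26.8 ± 13.4 (SD, n = 2) in P8 control, 26.5 ± 11.5 (SD, n = 2) in P7+24h injured and 26.3 ± 17.7 (SD, n = 2) in P28+24h injured cord. The ranges of all 4 groups overlapped, and no neighbours in this order differed by more than the spread within a group.

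**Figure D1:**
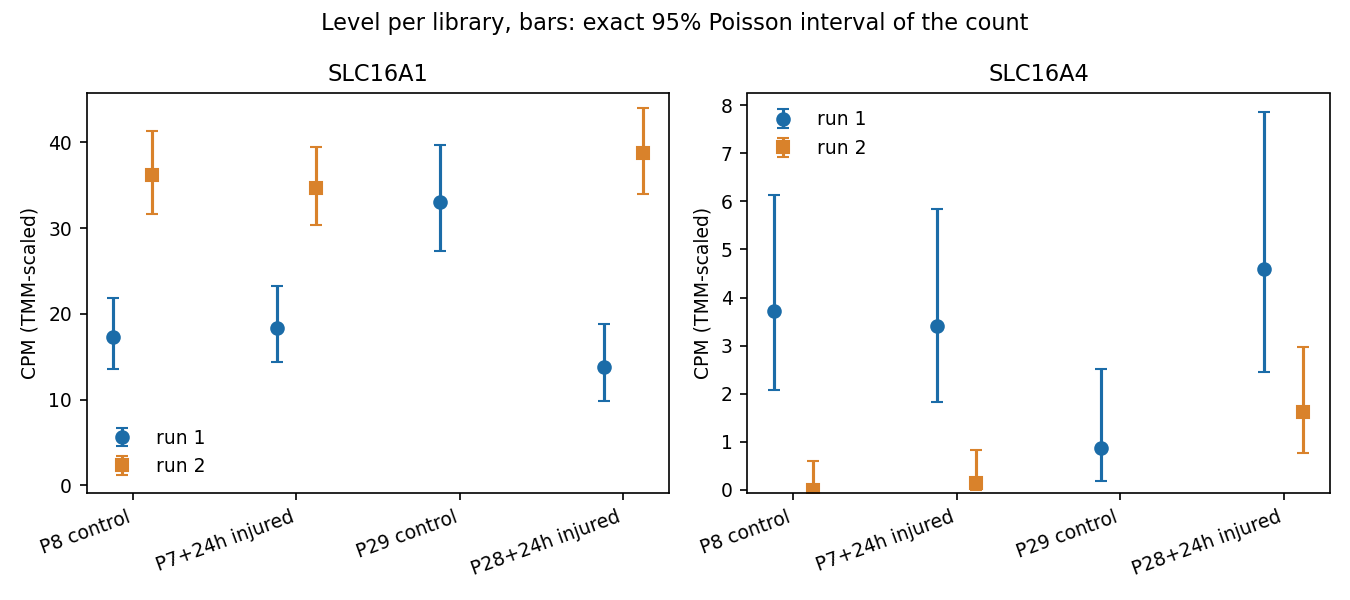
Level of SLC16A1 (left) and SLC16A4 (right) in each of the 7 libraries in TMM-scaled CPM, by group on the x axis, with circles for run 1, squares for run 2 and bars for the exact 95% Poisson interval of the count. SLC16A1 was 2 times or more apart between the runs of P8 control and P28+24h injured cord, and SLC16A4 was near 0 in the young cords of run 2 and between 3.41 and 3.71 CPM in those of run 1.

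SLC16A4 was a low-count gene. In P8 control cord it had 15 counts in run 1, 3.71 CPM (2.08 to 6.12), and 0 counts in run 2, for which the upper limit of the interval is 0.608 CPM. In P7+24h injured cord it had 13 counts in run 1, 3.41 CPM (1.82 to 5.84), and 1 count in run 2, 0.15 CPM (0.00379 to 0.833). The same split by run appeared as for SLC16A1, in the opposite direction: over the young cords, the 2 libraries of run 1 held 28 SLC16A4 counts in 7342210 and the 2 of run 2 held 1 in 11867271. The P29 control library had 3 counts, 0.862 CPM (0.178 to 2.52). P28+24h injured cord had 13 counts in run 1, 4.59 CPM (2.44 to 7.85), and 10 counts in run 2, 1.62 CPM (0.778 to 2.98), so both injured libraries were above the single control of that age, with intervals that overlap its interval.

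The order of SLC16A4 by group mean was P28+24h injured with 3.11 ± 2.10 CPM (SD, n = 2), P8 control with 1.86 ± 2.63 (SD, n = 2), P7+24h injured with 1.78 ± 2.31 (SD, n = 2) and P29 control with 0.862 (n = 1). Each of the first 3 groups had a standard deviation above or near its differences from its neighbours, and the P29 control lay within the range of the P8 and P7+24h libraries. Only the P28+24h injured and P29 control libraries did not overlap.

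A share of counts within 1 library does not depend on how libraries are scaled. SLC16A4 made up 17.6% of the counts on both genes in P8 control run 1 (exact binomial 95% interval 10.2 to 27.4), 15.7% in P7+24h injured run 1 (8.61 to 25.3) and 25% in P28+24h injured run 1 (14.0 to 38.9). In the run 1 library of P29 control cord the share was 2.54% (0.527 to 7.25), below the intervals of the other 3 libraries of that run. In run 2 the share was 0 of 220 counts in P8 control cord, with an exact upper limit of 1.66% (3 counts of the total would be 1.36%), then 0.429% (0.0109 to 2.37) in P7+24h injured and 4.02% (1.94 to 7.26) in P28+24h injured cord. Within run 1 the P29 control library thus stood apart from the other 3 libraries, and its share lay within the range of the run 2 libraries.

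**Figure D2:**
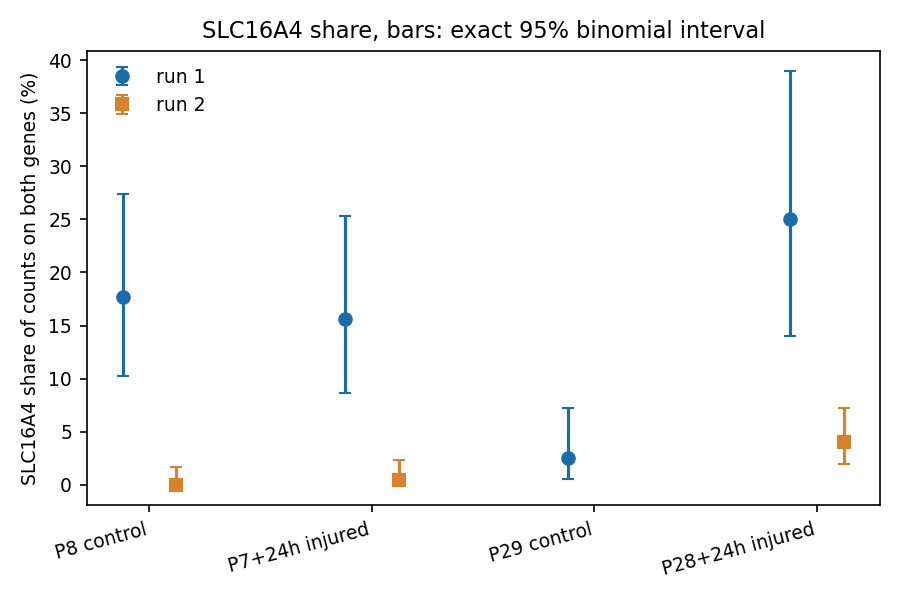
Share of SLC16A4 in the counts of SLC16A1 and SLC16A4 together, in percent, for each library by group, with circles for run 1, squares for run 2 and bars for the exact 95% binomial interval. The run 1 libraries other than the P29 control lie between 15.7% and 25%, and the P29 control and all 3 run 2 libraries lie at 4.02% or below.

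At the younger age injured and control cords gave close values for both genes. In edgeR's quasi-likelihood test over all 4 groups, P7+24h injured against P8 control cord gave a log2 fold change of -0.01 (SE 0.63, adjusted p = 1) for SLC16A1. For SLC16A4 it was -0.09 (SE 1.76, adjusted p = 1). Neither gene was called, where a call needs at least a 2-fold difference with an adjusted p under 0.05, and 0% of the 13534 genes tested were called in this comparison, with 69 genes at an unadjusted p under 0.05. Other tools called between 0 and 36 genes here, and neither member was among them.

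Within a run the values at the younger age were equally close. The ratio of P7+24h injured to P8 control SLC16A1 was 1.06 in run 1 (exact conditional 95% interval 0.751 to 1.5) and 0.957 in run 2 (0.792 to 1.16). These intervals cover counting error, and the spread between animals comes on top of it. For SLC16A4 the run 1 ratio was 0.919 (0.403 to 2.07), and no ratio was formed in run 2, where both libraries were under 3 counts. With run as a block the estimates were -0.00 (SE 0.20, adjusted p = 1) for SLC16A1 and -0.03 (SE 0.81, adjusted p = 1) for SLC16A4, beside 0.0148% of the genes tested that were called.

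At the older age the single control library decides the comparison. P28+24h injured against P29 control cord gave a log2 fold change of -0.31 (SE 0.77, adjusted p = 1) for SLC16A1 and of 1.74 (SE 2.44, adjusted p = 1) for SLC16A4 without a block. Again 0% of the genes tested were called, with 157 genes at an unadjusted p under 0.05, and DESeq2 called 0 and edgeR's exact test 3.

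With the run as a block, both estimates moved away from 0. The block takes the run difference of a gene to be the same at both ages. In log2 CPM, that of SLC16A1 was 1.05 and 0.90 in the young cords and 1.46 in P28+24h injured cord. That of SLC16A4 was -3.29 and -2.74 in the young cords and -1.29 in P28+24h injured cord. These values use a prior count of 2, which draws low counts together. By counts SLC16A4 was at least 7.51-fold higher in run 1 of P8 control cord and 22.8-fold higher in that of P7+24h injured cord (3.43 to 970). In P28+24h injured cord it was 2.83-fold higher (1.15 to 7.21). SLC16A1 was lower by a log2 fold change of -1.03 (SE 0.27, adjusted p = 0.109) and SLC16A4 higher by 2.91 (SE 1.11, adjusted p = 0.229) in the quasi-likelihood test, which called 0.754% of the genes tested, 0.584% higher and 0.17% lower, and neither of these. edgeR's likelihood ratio test with the same block called both: SLC16A1 fell, with a log2 fold change of -1.02 (SE 0.30, adjusted p = 0.0232). In that test SLC16A4 rose, with 3.12 (SE 1.03, adjusted p = 0.0475), and 3.64% of the genes tested were called, 1.03% as lower and 2.61% as higher. That test takes no account of the uncertainty in each gene's spread, which here rests on 2 residual degrees of freedom. Both genes are also on the list of genes changed at P28+24h that the study drew from these same libraries, so their direction here is not independent evidence.

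Within run 1, the only run with a control of this age, both genes stood far from the middle of all genes. By counts SLC16A1 was 2.40-fold lower in P28+24h injured run 1 than in P29 control cord (exact conditional 95% interval 1.66 to 3.54). SLC16A4 was 5.33-fold higher (1.46 to 29.1). In log2 CPM, where a prior count of 2 draws low counts together, the difference was -1.24 for SLC16A1, and 2.84% of the genes tested were lower still in that pair. For SLC16A4 it was 1.96, and 1.07% of the genes tested were higher still. The run 2 library of P28+24h injured cord has no control of its own run. Set against the run 1 control, its SLC16A1 ratio was 1.17 (0.935 to 1.48), on the other side of 1, and its SLC16A4 ratio was 1.88 (0.484 to 10.6).

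Leaving out a P28+24h injured library moved the blocked estimates. Without the run 2 library, SLC16A1 was lower by 1.32 on the log2 scale in the blocked fit and SLC16A4 was higher by 2.31. Without the run 1 library, SLC16A4 was higher by 6.01 and SLC16A1 was at -0.76. Such a fit sets 1 injured library against the lone control, and its 1 residual degree of freedom comes from the 4 young libraries. Its test took the spread, shared over genes, as if it were known exactly. No p-value is therefore given for it. Without the block and without the run 1 library, SLC16A1 was at 0.22, on the other side of 0, and SLC16A4 at 0.88. The blocked value of 6.01 sets a run 2 library against a run 1 control. Its run difference comes from the young cords, whose run 2 libraries had 0 and 1 SLC16A4 counts.

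**Figure D3:**
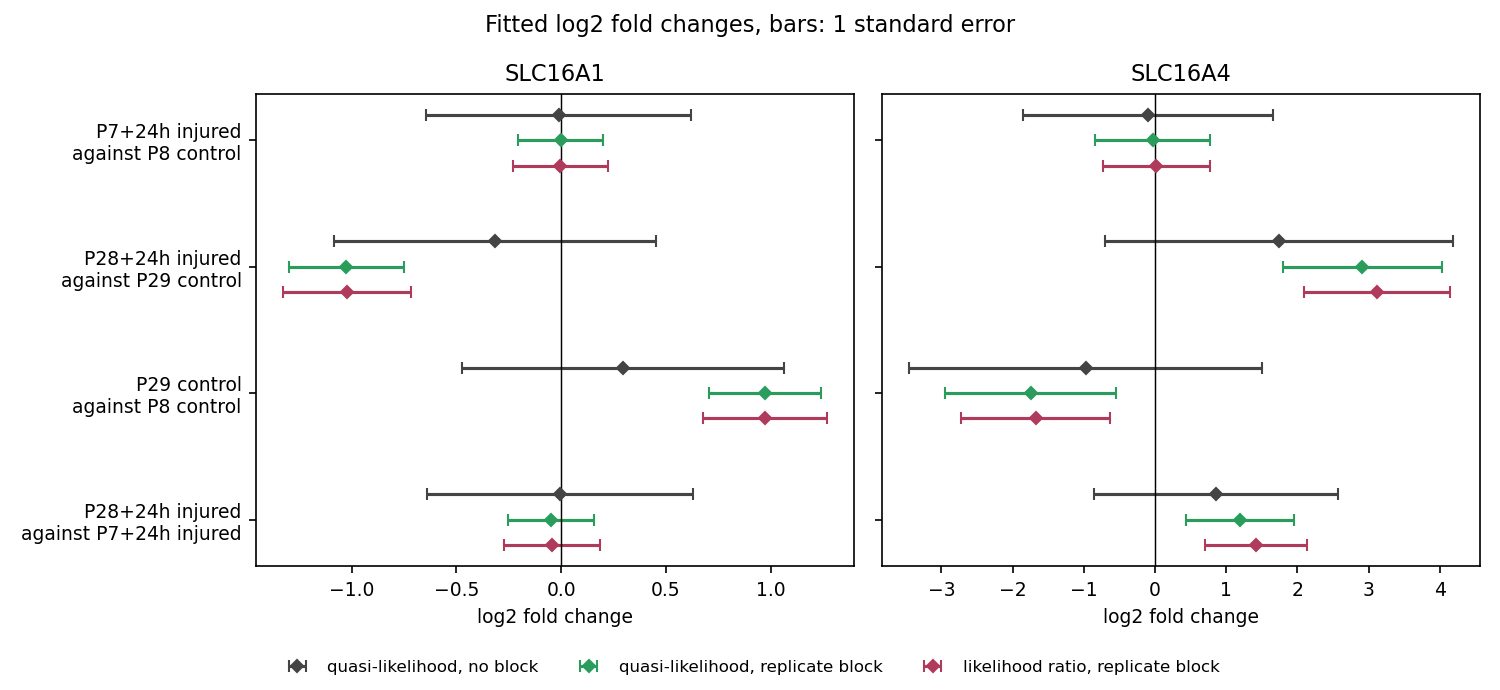
Fitted log2 fold changes of SLC16A1 (left) and SLC16A4 (right) in 4 comparisons, with bars of 1 standard error, for the quasi-likelihood test without a block, the same with run as a block, and the likelihood ratio test with that block. At the younger age all 6 estimates lie between -0.09 and 0.02, and at the older age the block moves SLC16A1 from -0.31 to -1.03 and SLC16A4 from 1.74 to 2.91.

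Maturation was compared in uninjured cord. P29 control against P8 control cord gave a log2 fold change of 0.30 (SE 0.77, adjusted p = 0.859) for SLC16A1 and of -0.97 (SE 2.48, adjusted p = 0.856) for SLC16A4. Neither was called, beside 1.79% of the genes tested. With the run as a block SLC16A1 was at 0.97 (SE 0.27, adjusted p = 0.0191), past the threshold on p and just short of a fold of 2, where 21.4% of the genes tested were called and 12.5% were called higher. In that fit SLC16A4 was at -1.75 (SE 1.20, adjusted p = 0.305).

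Within run 1 the P29 control had 1.91 times the SLC16A1 of the P8 control (1.40 to 2.60), and its SLC16A4 was 4.31-fold lower (1.22 to 23.2). Among the injured cords, where both ages have both runs, neither gene was called without a block. P28+24h injured against P7+24h injured cord gave -0.01 (SE 0.63, adjusted p = 0.997) for SLC16A1 and 0.86 (SE 1.72, adjusted p = 0.810) for SLC16A4, beside 2.81% of the genes tested that were called. The block gave -0.05 (SE 0.21, adjusted p = 0.869) and 1.20 (SE 0.76, adjusted p = 0.229), beside 22.6% called.

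By run, injured SLC16A1 at the older age was 0.749 times the younger value in run 1 (0.493 to 1.12) and 1.12 times in run 2 (0.929 to 1.34). Injured SLC16A4 was 1.34 times the younger value in run 1 (0.574 to 3.15) and 10.8 times in run 2 (1.54 to 471), where it rests on 10 counts against 1. For SLC16A1 the P29 control was thus the highest of the 4 run 1 libraries, and the injured cords of that run were within counting error of each other.

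The difference between the injury responses at P28 and P7 was tested directly. It was -0.30 on the log2 scale (SE 1.00, adjusted p = 1.00) for SLC16A1 and 1.83 (SE 3.02, adjusted p = 1.00) for SLC16A4, and 0% of the genes tested were called, with 59 genes at an unadjusted p under 0.05 and 0 calls by DESeq2. With the block it was -1.02 (SE 0.34, adjusted p = 0.369) for SLC16A1 and 2.94 (SE 1.42, adjusted p = 0.567) for SLC16A4, beside 0.0369% called. A response confined to the older age was thus not shown for either gene.

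The sequencing run was the only contrast in which the quasi-likelihood tests on all 7 libraries called either gene, and it called both. In the blocked quasi-likelihood fit SLC16A1 was higher in run 2 than in run 1 by 1.14 on the log2 scale (SE 0.17, adjusted p = 0.000454). SLC16A4 was lower in run 2, with a log2 fold change of -2.83 (SE 0.66, adjusted p = 0.00529). The calls stand beside 18.4% of the genes tested, 11.3% called higher and 7.08% lower in run 2. The log2 difference for SLC16A1 was 1.05 in P8 control, 0.90 in P7+24h injured and 1.46 in P28+24h injured cord. In the same order 90.5%, 86.3% and 91.6% of the genes tested had a lower value.

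For SLC16A4 the run difference was -3.29 in P8 control, -2.74 in P7+24h injured and -1.29 in P28+24h injured cord on the log2 scale. In P8 control cord 0.103% of the genes tested had a lower value, and in P7+24h injured cord 0.133%. The log2 run differences use a prior count of 2, which draws low counts together, so they are smaller than the ratios of counts. By counts SLC16A4 was at least 7.51-fold higher in run 1 of P8 control cord, set against a floor of 3 counts in the run 2 library. It was 22.8-fold higher in run 1 of P7+24h injured cord (3.43 to 970). In P28+24h injured cord it was 2.83-fold higher in run 1 (1.15 to 7.21).

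Genes that differed by run in the young cords also differed between P28+24h injured and P29 control cord within run 1. These comparisons have no library in common, and the sets were chosen after the data were seen. In P8 control and P7+24h injured cord alike, 2470 genes, SLC16A1 among them, were higher in run 2 by at least 0.5 on the log2 scale, and 76.8% of them were lower in the injured run 1 library than in the P29 control, with a median of -0.45. In the other direction 1928 genes, SLC16A4 among them, were higher in run 1, and 89.0% of them were higher in the injured library, with a median of 0.56. Over all genes tested 49.5% were higher and the median was -0.01. Across the 13534 genes, which share depth and composition within a library and are not independent replicates, the correlation of the P8 control run difference with the P28+24h change within run 1 was r = -0.46. The part of whatever separates the runs in the P28+24h values of the members was not tested.

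**Figure D4:**
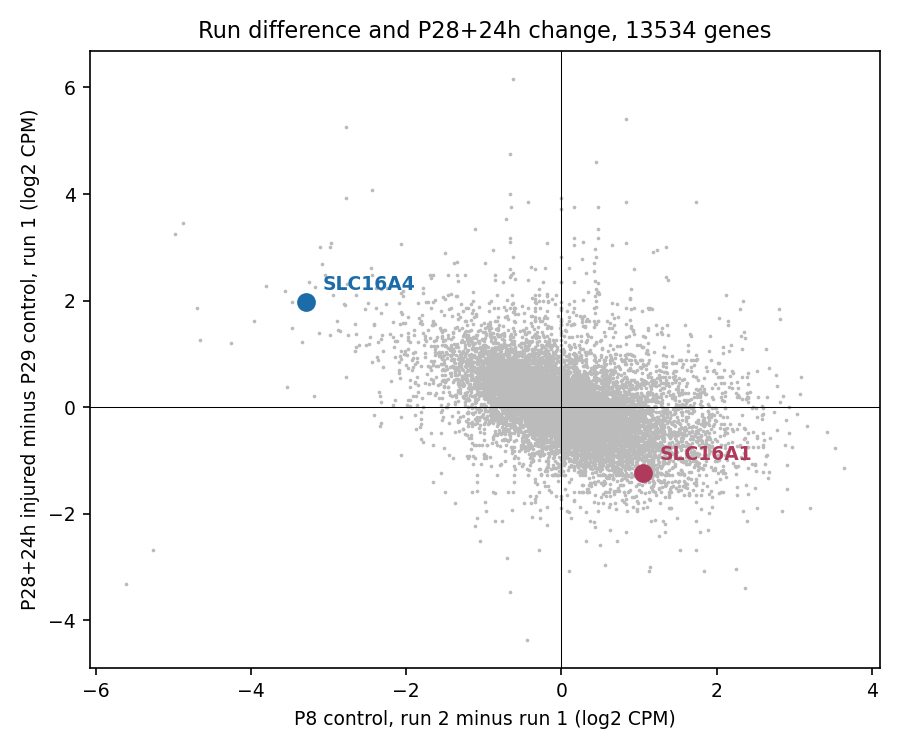
Each point is 1 of the 13534 genes tested, with the log2 CPM difference between the P8 control libraries (run 2 minus run 1) on the x axis and that between P28+24h injured and P29 control cord within run 1 on the y axis. SLC16A1 lies at 1.05 and -1.24 and SLC16A4 at -3.29 and 1.96, on opposite sides of a cloud that slopes downwards (r = -0.46).

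Counts of other genes that act on monocarboxylates were limited by naming. Gene symbols were taken from the study's supplementary lists, and of 14 SLC16 family symbols only the 2 members could be matched to an identifier. None of the 5 symbols of the partner proteins and sodium-coupled carriers could be matched, BSG included, and 1 of 20 of lactate, pyruvate and ketone metabolism could. That 1 is PDHA1, a subunit of the pyruvate dehydrogenase that feeds pyruvate to mitochondria. It had a log2 fold change of -0.16 (SE 0.20, adjusted p = 0.739) in P28+24h injured against P29 control cord in the blocked fit, where SLC16A1 was at -1.03.

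Of 17 symbols of glucose entry and glycolysis, 5 were matched, all through the proteomic part of the study. They are ALDOC, ENO1, GAPDH, PGK1 and TPI1, enzymes of the path that makes pyruvate. In the blocked fit 0 of 5 were called after injury at P28, beside 0.754% of the genes tested. Their median log2 fold change was -0.02, with a range from -0.30 to 0.29, beside a median of -0.00 over all genes tested. At P7 0 of 5 were called, beside 0.0148% of the genes tested, with a median of 0.09. At such shares 0 of 5 is no result about these genes. PGK1, which makes ATP in the later part of glycolysis, rose with age in control cord by 1.39 (SE 0.22, adjusted p = 0.00113) and was the only one of the 5 called in that comparison. Of all genes tested, 12.5% were called higher there. None of the 5 was called between runs, beside 18.4% of the genes tested. All 5 were lower in run 2, with a median of -0.38, as SLC16A4 was and SLC16A1 was not.

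Markers of cells known to carry MCT1 were compared as well. Since the libraries are bulk tissue, fewer cells of a type and less RNA per cell cannot be told apart. Of 11 oligodendrocyte symbols 4 were matched (MAG, MBP, OLIG2 and UGT8), and none was at 0 in any library. Their summed level was 94.8 and 256.9 CPM in P8 control, 72.5 and 247.3 in P7+24h injured, 32846 in P29 control and 20448 and 26498 in P28+24h injured cord, with run 1 first. All 4 of 4 were called higher with age in control cord in the blocked fit, beside 12.5% of the genes tested. Their median log2 fold change was 8.01, while SLC16A1 was at 0.97.

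After injury at P28, 1 of the 4 oligodendrocyte markers was called lower in the blocked fit, beside 0.17% of the genes tested. It was OLIG2, a factor of the oligodendrocyte lineage, with a log2 fold change of -1.05 (SE 0.19, adjusted p = 0.0389). The median of the 4 was -1.03, close to the estimate for SLC16A1. Between runs, 2 of 4 were called higher in run 2, beside 11.3% of the genes tested, with a median of 1.10 over the 4. The likelihood ratio test with the block called 2 of 4 as lower after injury at P28, beside 1.03% of the genes tested. All 4 genes have their symbol from the study's list of genes changed at P28+24h in these libraries, as do the endothelial, erythroid and muscle genes, so their P28+24h values are not independent evidence of a direction. Their part in the SLC16A1 values was not tested. Of 10 endothelial symbols only KDR and VWF were matched, and 0 of 2 were called after injury at P28 in the blocked fit, beside 0.754% of the genes tested. KDR was lower, at -0.77, and VWF higher, at 1.06, so their median of 0.14 lies between opposite directions. GFAP, the 1 of 7 astrocyte symbols matched, was higher in run 2 by 1.13 on the log2 scale (adjusted p = 0.000393) and was at -0.29 (adjusted p = 0.622) after injury at P28.

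Markers of red blood cells moved between runs in the direction of SLC16A4. Of 6 erythroid symbols 4 were matched (AHSP, ALAS2, HBA and HBZ), to 5 genes of which 4 were tested. The tested HBA gene was at 0 in P7+24h injured run 2 and the untested one in all 7 libraries. All 4 of 4 were called lower in run 2, beside 7.08% of the genes tested, with a median log2 fold change of -2.87. Their summed level was 288.2 and 55.5 CPM in P8 control, 193.0 and 51.3 in P7+24h injured, 219.8 in P29 control and 479.2 and 137.2 in P28+24h injured cord, with run 1 first. The P29 control and P28+24h injured libraries of run 1 thus differed in these markers too, and after injury at P28 1 of 4 was called higher, HBZ, an embryonic globin, with a log2 fold change of 2.48 (SE 0.35, adjusted p = 0.0229) in the blocked fit, beside 0.584% of all genes tested that were called higher. The likelihood ratio test with the block called 3 of 4 higher, beside 2.61%. The part of blood in the SLC16A4 values was not tested.

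Markers of microglia and macrophages and of skeletal muscle were also compared. Summed over 9 microglial genes the level was 34.4 and 38.2 CPM in P8 control, 108.2 and 145.8 in P7+24h injured, 149.1 in P29 control and 492.3 and 343.6 in P28+24h injured cord, with run 1 first. The 4 muscle genes summed to 14.9 and 6.43 CPM in P8 control, 14.4 and 11.5 in P7+24h injured, 8.33 in P29 control and 38.8 and 33.2 in P28+24h injured cord. Both sums were higher in both P28+24h injured libraries than in the P29 control, with median log2 fold changes of 1.64 and 3.35 in the blocked fit. That fit called 0 of 9 and 0 of 4 genes there, beside 0.584% of the genes tested that were called higher. The likelihood ratio test with the block called 7 of 9 and 3 of 4 as higher, beside 2.61%. Of the 9 microglial genes, 7 have their symbol from the study's list for P28+24h and 2 from that for P7+24h. TREM2 was at 0 in P8 control run 1 and TRDN in P29 control, and the part of these cells in the members' values was not tested.

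**Figure D5:**
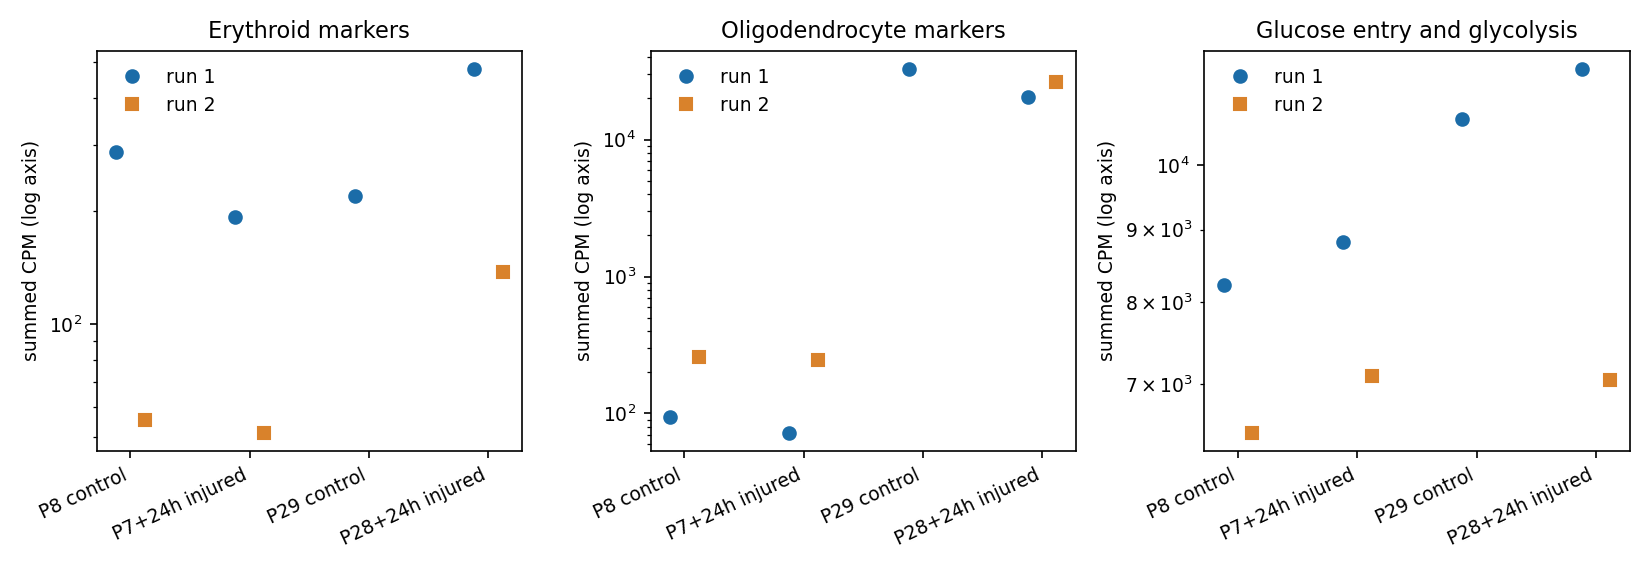
Summed CPM of 4 erythroid genes, 4 oligodendrocyte genes and 5 glycolytic genes in each library, on log axes, by group, with circles for run 1 and squares for run 2. Erythroid sums are higher in run 1 than in run 2 in every group with both runs, oligodendrocyte sums are higher in run 2, and oligodendrocyte sums separate the young cords (at most 256.9 CPM) from the older ones (at least 20448 CPM).

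The genes whose pattern was most like each member were taken from 663 other tested genes that have a symbol, by Pearson correlation of log2 CPM over the 7 libraries. For SLC16A1 they were LCOR (0.992), SPRED1 (0.991), SEMA7A (0.986), WWP2 (0.985) and IMPAD1 (0.982). LCOR is a nuclear receptor corepressor, SPRED1 an inhibitor of Ras signalling, SEMA7A a membrane-anchored semaphorin, WWP2 a ubiquitin ligase and IMPAD1 a phosphatase of the Golgi. SEMA7A had 147 and 496 counts in P8 control, 131 and 530 in P7+24h injured, 235 in P29 control and 87 and 593 in P28+24h injured cord, with run 1 first. Like SLC16A1, it was lowest in P28+24h injured run 1 and high in every run 2 library.

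For SLC16A4 the closest were LGALS4 (0.993), SGSM3 (0.991), OSBPL7 (0.990), ABCC5 (0.987) and CCNL1 (0.986). LGALS4 is a galectin, OSBPL7 an oxysterol-binding protein, ABCC5 an export pump and CCNL1 a cyclin linked to splicing. LGALS4 had 73 and 1 counts in P8 control, 59 and 2 in P7+24h injured, 8 in P29 control and 72 and 22 in P28+24h injured cord, with run 1 first. It showed the pattern of SLC16A4 at higher counts, near absence from the young cords of run 2 included.

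All 10 of these genes are on the study's list for P28+24h, which makes up much of the set with symbols, so their likeness is not independent of that choice. With each run centred on its own mean, 2 of 5 remained for SLC16A1 and 4 of 5 for SLC16A4. By Spearman correlation 2 of 5 remained for SLC16A1 and 1 of 5 for SLC16A4.

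In the RefSeq annotation of another opossum assembly, mMonDom1, both members lie on the same chromosome with 37 protein-coding genes between them. SLC16A1 lies between TAFA3 and LRIG2 and overlaps no other gene there. SLC16A4 lies between RBM15 and LAMTOR5 and overlaps 1 long non-coding RNA. Whether reads were counted by strand is not given in the sources used here, so reads from that RNA and from SLC16A4 may not be separable in its low counts.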

How the data were processed

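RNA of rostral spinal cord was sequenced in 7 libraries. The authors mapped the reads with Bowtie2 and counted them per Ensembl gene with HTSeq, and the deposited values are unscaled counts for 21314 genes. The submitters' processing notes also name edgeR 2.6.12.

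TMM factors were computed, and filterByExpr with a minimum count of 10 kept 13534 genes. edgeR 4.0.16 fitted them by quasi-likelihood over 4 groups with no block (3 residual degrees of freedom), and p-values were adjusted after Benjamini and Hochberg. The study's methods name an exact test, which was run as an alternative. At P28+24h it gave log2 fold changes of -0.32 for SLC16A1 and 1.80 for SLC16A4 and called neither. Both are on the study's list of changed genes there, so this run of the exact test did not return that list for the members. A call needed at least a 2-fold difference with an adjusted p under 0.05. The standard error is the log2 fold change divided by the square root of the test statistic. Log2 CPM values used a prior count of 2.

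The replicate number in the labels is the sequencing run, a batch shared by libraries of different groups. The labels give no pairing of animals. Run differences of the groups correlated across genes at 0.80, 0.70 and 0.74, and the common dispersion went from 0.141 without the block to 0.0181 with it, at 2 residual degrees of freedom.

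The 2 genes and all gene lists were chosen with earlier results of these data known. Members are given in full, list genes by counts with at most 4 examples, and the 5 genes with a symbol most like each member are named. Symbols came from the study's supplementary tables, since the reference gene table holds no Ensembl identifiers, and 2 genes left out of the lists are not reported here. Alternatives were the block, a likelihood ratio test with it, exact tests, DESeq2 1.42.0, RLE factors, library size only, other filters and leaving out each library. A count of 3 was the floor. The tests were also run on simulated data, with no outcome given here. There each gene had the same run difference at both ages, and changes were planted only in genes with higher counts than SLC16A4. Those data therefore do not bear on the block's assumption or on calls of SLC16A4. R 4.3.3, limma 3.58.1, Python 3.11.15, numpy 2.4.6, pandas 2.3.3, scipy 1.17.1 and matplotlib 3.10.9 were used.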

Additional observations from a re-analysis of the deposited data

How the results depend on the processing

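Of 206 alternative values of the members, 86 did not leave out a library, and 82 of these kept their direction and their side of the threshold. The likelihood ratio test with the replicate block called both members at P28+24h (SLC16A1 -1.02, SLC16A4 3.12) and put SLC16A4 at P7+24h at 0.021, against -0.09. With library size only, SLC16A1 in P29 against P8 control was at -0.00081. Of 120 leave-one-out values 22 turned direction and 7 passed the threshold, all 7 with the block and 1 residual degree of freedom. With the block, SLC16A1 at P7+24h turned to 0.048 without P8 control run 1 and 0.20 without P7+24h injured run 2, SLC16A4 there to 0.30 without the latter, and SLC16A1 between injured ages to 0.074 without P7+24h injured run 1 and 0.14 without P28+24h injured run 1. In log2 units, lowest to highest without and with the block, SLC16A1 ranged at P7+24h from -0.55 to 0.62 and from -0.15 to 0.20, at P28+24h from -1.32 to 0.22 and from -1.32 to -0.76, in P29 against P8 control from -0.13 to 0.93 and from 0.87 to 1.05, between injured ages from -1.0 to 0.54 and from -0.42 to 0.14, and in the difference of responses from -1.30 to 0.25 and from -1.31 to -0.73. SLC16A4 ranged from -3.32 to 5.99 and from -1.51 to 4.40, from 0.88 to 2.31 and from 2.31 to 6.01, from -2.07 to 5.10 and from -2.07 to 2.82, from -0.21 to 4.08 and from 0.31 to 4.01, and from -4.25 to 5.05 and from -1.68 to 6.03. Values past the threshold with the block included SLC16A4 between injured ages (4.01) and its difference of responses (6.03), both without P28+24h injured run 1. Also past it were the difference of responses of SLC16A1 without P28+24h injured run 2 (-1.30), and SLC16A1 in P29 against P8 control without P7+24h injured run 1 or run 2 (1.04 in both). These fits leave 1 library in a further group, and the share of all genes called in them is not given, so they are not read as results about the members. The blocked fit on all 7 libraries already called 22.6% of the genes tested between injured ages and 21.4% in P29 against P8 control. The lone P29 control could not be left out and is assumed to vary like the other groups. DESeq2 gave no adjusted p for SLC16A4 in P29 against P8 control, and the difference of responses has no exact test. With the block, and in brackets with the block and the likelihood ratio test together, genes called went from 0 to 102 at P28+24h (493), from 0 to 2 at P7+24h (36), from 242 to 2893 in P29 against P8 control (3242), from 380 to 3064 between injured ages (3274) and from 0 to 5 in the difference (200). At P7+24h the exact tests called 5 and 6 genes and DESeq2 2, and at P28+24h 3, 3 and 0. In P29 against P8 control they called 972, 1151 and 862, with 138 by library size only, and between injured ages 1301, 969 and 1019, with 229. Without 1 library and without the block, P29 against P8 control had 0 to 139 calls. At 0 to 15 counts a library, depth limits every value of SLC16A4. The cause of these shifts was not tested.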
